A study of Rattus norvegicus with 6 samples.

Results

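The genes of the syntaxin, VAMP, synaptotagmin, synaptotagmin-like and syntaxin-binding protein families were examined in rat pancreatic islets at 3 and 12 months of age, together with the SNAP-25 family, *Rims1*, *Rims2*, *Unc13a*, *Unc13b*, *Cplx1* and *Cplx2*. Members were taken by their gene symbol, and no measured value enters that rule. Of 65 such symbols in the rat gene table, 54 had a probe on the array matched through a RefSeq mRNA accession, out of 13882 genes with a matched probe, and 44 of the 54 were bright enough to be tested, out of 11183 genes tested. The islets came from male Wistar rats and were released by collagenase digestion of the pancreas. There were 3 arrays of 3-month-old rats and 3 arrays of 12-month-old rats, with no treatment or genetic change in either group. The series describes 3 rats of each age, as many as arrays, without saying outright that each array holds the RNA of 1 rat, and the p-values measure the spread between these arrays.

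Hormone granules fuse with the plasma membrane when a VAMP protein on the granule pairs with a syntaxin and a SNAP-25 family protein on the plasma membrane, the SNARE complex. Syntaxin-binding proteins of the Munc18 kind hold and assemble syntaxins, RIM and Munc13 proteins (genes *Rims* and *Unc13*) tether and prime granules at release sites, complexins bind the assembled complex, and synaptotagmins are calcium sensors of release. Other members of the same families act in traffic between the Golgi apparatus, endosomes and lysosomes. The machinery is shared by endocrine cells and neurons, and islets also hold nerve endings, exocrine remnants and stromal cells.

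Signals are given as quantile-normalised log2 units, and a difference is the 12-month mean minus the 3-month mean on that scale. Each of 8 endocrine markers, among them *Ins1*, *Ins2*, *Gcg* and *Sst*, was above background on every array, and none of the 8 passed an adjusted p of 0.05 in limma. Their log2 summed signal was nonetheless higher on every 12-month array, from 20.76 to 20.91 at 3 months and from 21.08 to 21.14 at 12 months. Of the 8 markers 7 were higher and 3 of them without overlap, *Iapp* the most, by 0.95 (limma adjusted p 0.0532). Of 11183 tested genes 4867 were higher and 6316 lower at 12 months, and 17.1% were higher without overlap. Each age had its own scanner session, so that the effects of scan and of age cannot be told apart. Of all probes, 73.1% to 77.5% were above background on the 3-month arrays and 59.5% to 64.2% on the 12-month arrays. Negative control spots had medians of 29.5 to 31 scanner units at 3 months and 89.5 to 91 at 12 months. Markers of other cells also differed with age. Of 11 nerve markers 9 were lower at 12 months, 1 passing the adjusted threshold downward (*Prph*) and 1 upward (*Elavl4*). Marker sums add quantile-normalised signals taken back from the log2 scale. For the nerve markers the sum ran from 14397 to 24442 at 3 months and from 10248 to 10540 at 12 months. Of 5 tested Schwann cell markers 5 were lower, with 1 past the threshold, and their summed signal with 3 untested ones (*Erbb3* and *Cdh19* among them, all 3 above background on no array) ran from 3290 to 3780 and from 1898 to 2527. Of 5 mesenchymal markers 5 were higher, with 1 past the threshold, and summed to between 9728 and 17000 at 3 months and between 25324 and 64920 at 12 months. Of 4 endothelial markers 3 were lower, among them *Cdh5* with a difference of -2.11 and *Tek* with -1.14, and *Pecam1* was higher by 1.23. *Cdh5* was above background on all 3-month arrays and on no 12-month array, so the size of its difference is uncertain. None of the 4 passed the adjusted threshold, and they summed to between 8370 and 11808 at 3 months and between 4453 and 7107 at 12 months. The sum of 9 immune markers overlapped between the ages, and 0 of 8 tested passed. The part of these cells in the results for the exocytosis genes was not tested, and in whole islets fewer cells of a type and less RNA per cell cannot be told apart.

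Of the 44 tested members, 2 rose and 2 fell between 3 and 12 months at an adjusted p under 0.05 in limma, adjusted by Benjamini-Hochberg over the 17943 probes tested. *Rims2* and *Stx6* rose, and *Cplx1* and *Vamp1* fell. Of all tested genes 4.87% were called higher and 2.96% lower by the same rule. At the cut-offs of the study, more than a 2-fold difference and an unadjusted p below 0.05, here taken with limma's p, 6 members were higher and 7 lower, where 9.8% and 9.65% of all genes were. The groups did not overlap for 7 members higher and 12 members lower at 12 months, beside 17.1% and 22.2% of all genes. The median difference over the 44 members was -0.12, and over all tested genes -0.13. The families held rises and falls side by side, with a median near that of all genes. With limma on the 4 arrays whose names end alike 0 members passed the adjusted threshold and 9 the looser rule, where 0 of all genes and 13.65% of them did. An exact permutation test of 3 arrays against 3 cannot give a two-sided p under 0.1, and each gene whose groups do not overlap reaches that value.

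**Figure D1:**
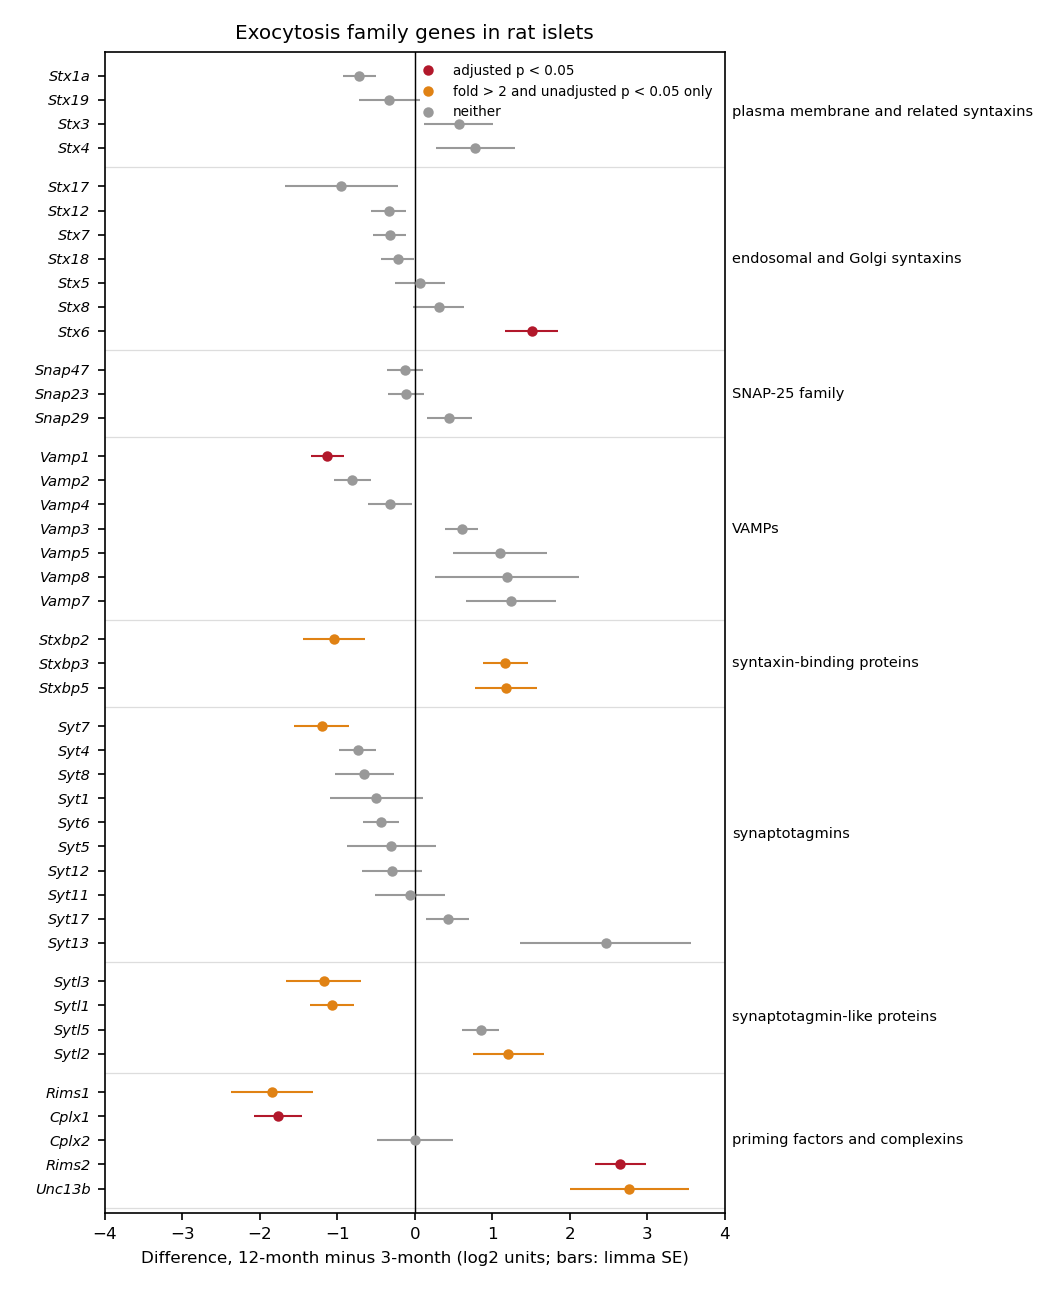
The difference of each of 43 of the tested genes, 12-month minus 3-month in log2 units, is plotted by functional group, with bars for the limma SE and colours for the calls. *Rims2*, *Stx6*, *Cplx1* and *Vamp1* are the 4 genes past an adjusted p of 0.05, and every group of genes with more than 3 members tested holds both positive and negative differences.

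*Rims2* and *Rims1*, which encode active zone scaffolds that bind the granule GTPase Rab3 and Munc13 proteins, lay on opposite sides. *Rims2* had log2 signals of 3.05, 3.00 and 3.41 on the 3-month arrays and of 5.37, 5.66 and 6.41 on the 12-month arrays. All 12-month arrays stood above all 3-month arrays. *Rims2* rose by 2.66 (limma SE 0.33, adjusted p 0.0100). At 3 months a single array had this probe above background and at 12 months all 3 did, so it was tested only through its 12-month arrays, where it is high, and it was not among the genes above background on all 6 arrays. The adjusted p of 0.0205 to 0.0457 with single arrays left out and the size of the difference rest on a 3-month level close to background. The difference was 2.17 with arrays shifted to a common 75th percentile and 0.78 with normexp background correction, and both fits called it. A second *Rims2* probe, for another RefSeq transcript, gave 3.43, 2.97 and 3.13 at 3 months and 5.49, 5.53 and 6.27 at 12 months. That probe was above background on 2 arrays, both at 12 months, and was not tested.

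*Rims1*, above background on 2 of 3 arrays at 12 months and on all at 3 months, had log2 signals of 8.59, 7.59 and 7.73 at 3 months and of 5.71, 7.22 and 5.44 at 12 months. The groups did not overlap, with 12-month replicate 2 close to the young arrays. The difference was -1.85 (limma SE 0.53, adjusted p 0.0731), short of the adjusted threshold but past the fold and unadjusted p of the study. Without 12-month replicate 2 the difference was -2.39 and the limma adjusted p 0.0237, while leaving out any other array gave limma adjusted p from 0.101 to 0.209, with -1.51 without 12-month replicate 3.

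The 2 Munc13 genes differed in detection. *Unc13a*, which encodes the priming factor Munc13-1, was above background on 1 array, at 3 months, and was not tested. *Unc13b*, which encodes Munc13-2, had log2 signals of 5.61, 4.80 and 5.12 at 3 months and of 7.76, 6.43 and 9.65 at 12 months. Every 12-month array was higher, and the 12-month arrays were far apart. The difference of 2.77 (limma SE 0.77, adjusted p 0.0683) passed the unadjusted rule only. Without 12-month replicate 2 it was 3.53 with a limma adjusted p of 0.0258, without 12-month replicate 3 it was 1.92 with 0.103, and without each of the others the adjusted p was 0.129 to 0.171. A probe for another *Unc13b* transcript was higher by 1.15 (limma SE 0.47, adjusted p 0.145), at 5.71, 6.06 and 5.91 against 6.99, 6.15 and 8.02.

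The complexins, small proteins that bind the SNARE complex and both clamp and promote fusion, were also unequal. *Cplx1* had log2 signals of 10.19, 10.11 and 9.96 at 3 months and of 8.26, 8.86 and 7.84 at 12 months. All 3-month arrays lay close together and above every 12-month array. *Cplx1* fell by 1.76 (limma SE 0.31, adjusted p 0.0244), with signal above background on all 6 arrays. *Cplx2* had 8.66, 8.68 and 8.14 at 3 months and 7.74, 8.19 and 9.56 at 12 months, so that the groups overlapped, with a difference of 0.0046 (limma SE 0.49, adjusted p 0.996). The call of *Cplx1* held without 12-month replicate 2 (limma adjusted p 0.0191) and was lost without 3-month replicate 1 (adjusted p 0.0864), 3-month replicate 2 (0.0573), 3-month replicate 3 (0.0670), 12-month replicate 1 (0.101) or 12-month replicate 3 (0.0735), all from limma.

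**Figure D2:**
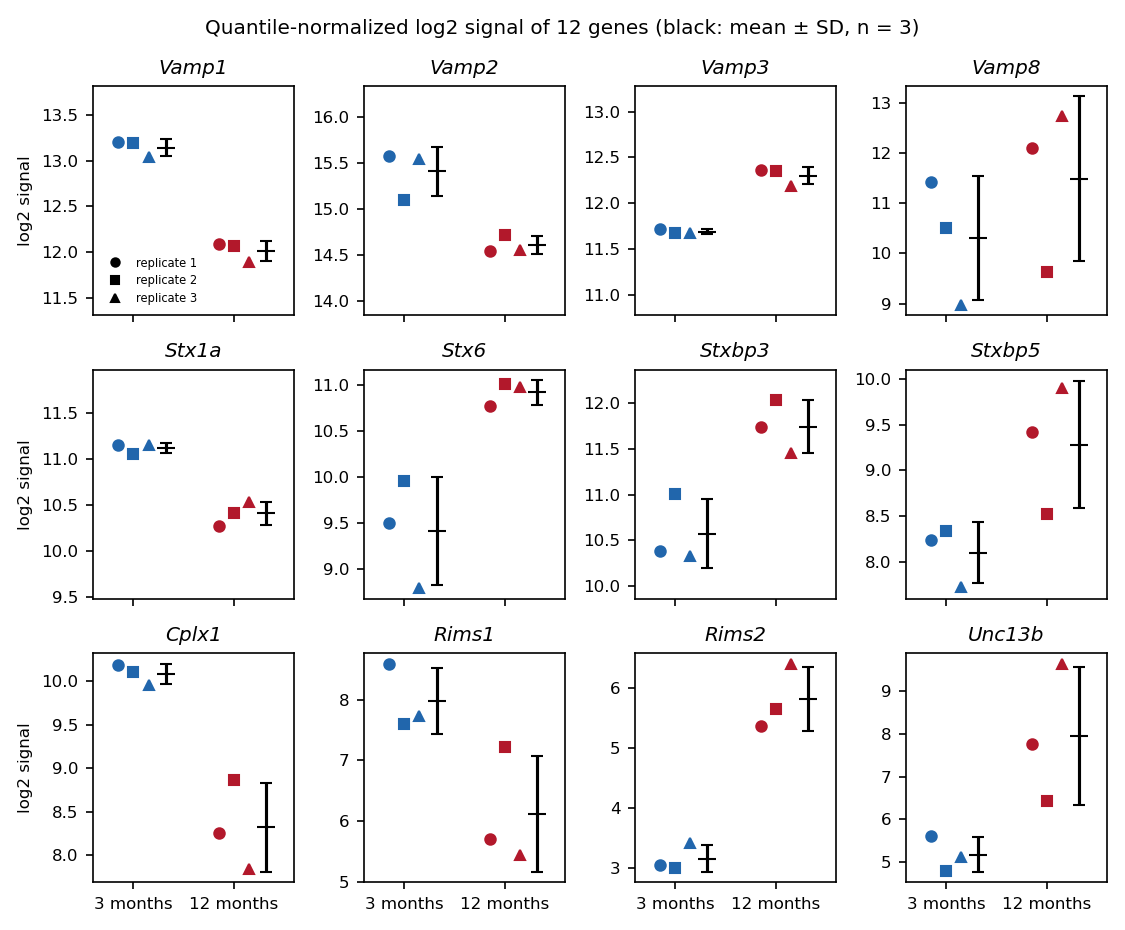
Quantile-normalised log2 signals of 12 genes are plotted for each array (blue, 3 months; red, 12 months; circle, square and triangle, replicates 1, 2 and 3), with the mean and SD of each age in black; the axes of the panels differ. *Vamp1*, *Vamp2*, *Stx1a* and *Cplx1* lie lower on all 12-month arrays, *Vamp3*, *Stx6*, *Stxbp3*, *Rims2* and *Unc13b* lie higher, and the ages overlap for *Vamp8*.

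The VAMPs, the SNARE proteins of vesicles and granules, were all above background on every array. *Vamp1*, a close relative of *Vamp2* that is abundant in neurons, had log2 signals of 13.20, 13.19 and 13.04 at 3 months and of 12.09, 12.06 and 11.89 at 12 months. The replicates of each age lay close together, and the ages were separate; the summed nerve marker signal was also lower on every 12-month array, and its part was not tested. *Vamp1* fell by 1.13 (limma SE 0.22, adjusted p 0.0295). The call of *Vamp1* held without 12-month replicate 2 (limma adjusted p 0.0430), and was lost without 3-month replicate 1 (0.0904), 3-month replicate 2 (0.0633), 3-month replicate 3 (0.0702), 12-month replicate 1 (0.118) or 12-month replicate 3 (0.10), while the difference stayed between -1.18 and -1.07.

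*Vamp2*, the VAMP of insulin granules, had log2 signals of 15.58, 15.10 and 15.55 at 3 months and of 14.54, 14.72 and 14.56 at 12 months. All 12-month arrays were lower, with a difference of -0.81 (limma SE 0.24, adjusted p 0.0807). With the 75th percentile shift, under which all genes had a median of -0.34, *Vamp2* was at -1.18 and passed (limma adjusted p 0.0487). *Vamp3*, known as cellubrevin, which is widely expressed and serves recycling endosomes and granules, ran the other way, from 11.72, 11.68 and 11.67 to 12.36, 12.35 and 12.19. The ages did not overlap, and the difference of 0.61 (limma SE 0.21, adjusted p 0.107) did not pass.

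*Vamp8*, *Vamp7* and *Vamp5* varied widely between arrays of one age. *Vamp8*, the endobrevin of endosomes and of the zymogen granules of acinar cells, had 11.42, 10.51 and 8.97 at 3 months and 12.11, 9.63 and 12.74 at 12 months. Its ages overlapped, with 3-month replicate 3 and 12-month replicate 2 lowest, and the difference was 1.19 (limma SE 0.93, adjusted p 0.398). *Vamp7*, which serves lysosomes, differed by 1.25 (limma SE 0.58, adjusted p 0.185) and *Vamp5*, first described in muscle, by 1.1 (limma SE 0.61, adjusted p 0.244). *Vamp4*, a VAMP of the trans-Golgi network, differed by -0.32 (limma SE 0.29, adjusted p 0.457).

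The log2 summed signal of 9 acinar cell markers was 21.31, 21.34 and 20.93 on the 3-month arrays and 21.38, 20.88 and 21.46 on the 12-month arrays. It was lowest on the same 2 arrays as *Vamp8*, and highest on 12-month replicate 3, as *Vamp8* was. All 9 acinar markers were above background on every array, and none of them passed the adjusted threshold between the ages. The part of acinar RNA in the *Vamp8* signal was not tested.

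**Figure D3:**
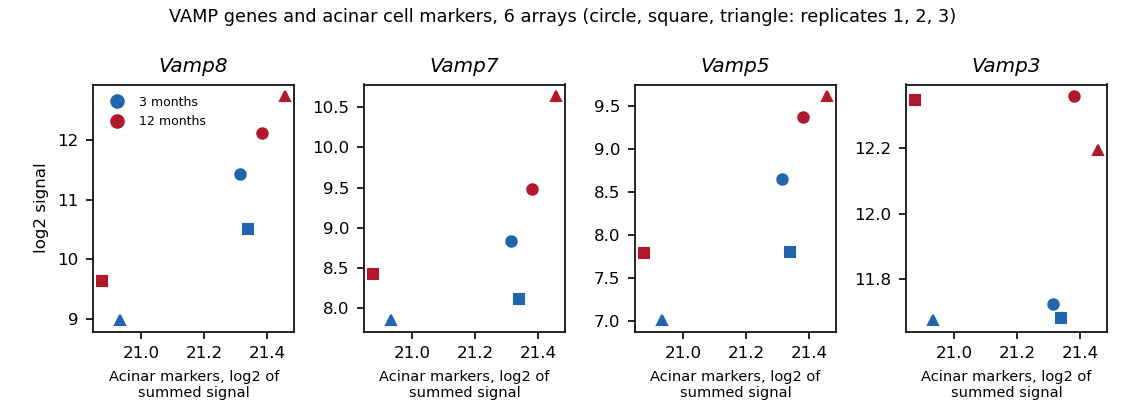
The log2 signals of *Vamp8*, *Vamp7*, *Vamp5* and *Vamp3* are plotted against the log2 summed signal of the 9 acinar markers for the 6 arrays (blue, 3 months; red, 12 months). The 2 arrays with the lowest acinar signal, 3-month replicate 3 and 12-month replicate 2, are the 2 lowest for *Vamp8* and *Vamp5*. For *Vamp5* 12-month replicate 2 (7.79) is barely below 3-month replicate 2 (7.80). *Vamp7* is lowest on 3-month replicates 3 (7.85) and 2 (8.12), with 8.43 on 12-month replicate 2, and *Vamp3* separates the ages at every acinar level.

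Among the syntaxins of the plasma membrane, *Stx1a*, the partner of *Vamp2* in insulin granule fusion, had log2 signals of 11.15, 11.06 and 11.16 at 3 months and of 10.27, 10.42 and 10.53 at 12 months. The ages were separate and each was narrow. The difference of -0.71 (limma SE 0.22, adjusted p 0.0820) passed neither rule in the limma fit. *Stx4*, which serves insulin granules as well as glucose transporter vesicles of muscle and fat, had 10.03, 9.72 and 8.44 and then 10.48, 9.45 and 10.59, overlapping ages with a difference of 0.78 (limma SE 0.51, adjusted p 0.316). *Stx3* differed by 0.57 (adjusted p 0.395) and *Stx19* by -0.33 (adjusted p 0.578) in limma. *Stx2* and *Stx11* were above background on 1 array each, both at 3 months, and were not tested.

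Of 7 tested syntaxins of inner membranes 1 passed the adjusted threshold, where 7.83% of all tested genes did. *Stx6*, a syntaxin of the trans-Golgi network that takes part in the maturation of secretory granules, had log2 signals of 9.50, 9.96 and 8.79 at 3 months and of 10.77, 11.01 and 10.98 at 12 months. Every 12-month array was higher than every 3-month array. *Stx6* rose by 1.51 (limma SE 0.34, adjusted p 0.0440). The call held without 3-month replicate 2 (limma adjusted p 0.0403) and was lost without 3-month replicate 1 (0.116), 3-month replicate 3 (0.0868), 12-month replicate 1 (0.130), 12-month replicate 2 (0.0643) or 12-month replicate 3 (0.119). The other 6, *Stx5* of the Golgi apparatus, *Stx7*, *Stx8* and *Stx12* of endosomes, *Stx17* of autophagosomes and *Stx18* of the endoplasmic reticulum, differed by -0.95 to 0.31, with limma adjusted p from 0.322 to 0.906.

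The promoters of the called genes are shown so that the transcripts that moved can be set beside the DNA in front of them. The RefSeq table of assembly GRCr8 held 42 of the 54 members, with 44 promoters; *Rims2* was not matched. Each sequence is the 250 bases before the annotated start, in lower case, with capitals for matches on either strand to the cyclic AMP response element TGACGTCA, to the E-box hexamer CACGTG, to the GC box hexamer GGGCGG or to the core promoter element TATAAA. No match overlapped another in the sequences shown.
Cplx1, chr14:1328823-1329072, plus strand: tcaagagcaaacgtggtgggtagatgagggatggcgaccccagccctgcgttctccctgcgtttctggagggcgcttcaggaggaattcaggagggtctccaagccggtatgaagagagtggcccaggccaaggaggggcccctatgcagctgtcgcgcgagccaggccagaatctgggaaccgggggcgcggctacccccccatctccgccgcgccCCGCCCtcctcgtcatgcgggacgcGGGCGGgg
Vamp1, chr4:159698644-159698893, plus strand: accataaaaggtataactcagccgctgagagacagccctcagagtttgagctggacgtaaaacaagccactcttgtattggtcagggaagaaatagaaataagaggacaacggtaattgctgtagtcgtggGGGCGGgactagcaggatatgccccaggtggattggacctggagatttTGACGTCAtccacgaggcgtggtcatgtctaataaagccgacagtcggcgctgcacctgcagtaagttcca
Stx6, chr13:69882397-69882646, plus strand: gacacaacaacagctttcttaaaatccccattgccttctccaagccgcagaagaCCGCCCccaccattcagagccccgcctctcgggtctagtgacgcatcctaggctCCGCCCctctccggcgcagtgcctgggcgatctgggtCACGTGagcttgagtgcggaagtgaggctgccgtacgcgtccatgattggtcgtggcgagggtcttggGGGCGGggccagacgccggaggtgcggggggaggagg
The response element TGACGTCA was found once before *Vamp1* and in 1 of the 44 member promoters, beside 1.59% of 33469 promoters of the same length. The E-box CACGTG was found once before *Stx6*, in 4 of 44 member promoters and in 5.59% of all. The GC box occurred before all of *Cplx1*, *Vamp1* and *Stx6*, in 28 of 44 member promoters, 63.6%, and in 30.5% of all promoters, and TATAAA in 3 of 44 and 12.9%. The GC content of the 250 bases was 68.0% for *Cplx1*, 64.8% for *Stx6* and 50.4% for *Vamp1*. The shares of all promoters cover every entry, not only genes with a probe on the array, so the sets compared are unlike. Binding to these letters was not measured.

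Of the SNAP-25 family, *Snap23*, the widely expressed form, differed by -0.11 (limma SE 0.23, adjusted p 0.749), with signals of 10.66, 10.86 and 10.89 at 3 months and 10.69, 10.89 and 10.49 at 12 months. *Snap29* differed by 0.45 and *Snap47* by -0.12, with limma adjusted p of 0.311 and 0.732. The ages overlapped for each of the 3. *Snap25* had no matched probe and was not analysed here.

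The syntaxin-binding proteins differed among themselves. *Stxbp3*, known as Munc18c, the partner of *Stx4*, had 10.38, 11.003 and 10.33 and then 11.74, 12.03 and 11.46. All 12-month arrays were higher, by 1.17 (limma SE 0.29, adjusted p 0.0560), past the study's fold and p but not the adjusted threshold. *Stxbp2*, known as Munc18b and prominent in epithelial and blood cells, had 8.46, 8.71 and 8.80 and then 6.93, 7.51 and 8.42, lower on every 12-month array, with a difference of -1.04 (limma SE 0.40, adjusted p 0.131).

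*Stxbp5*, known as tomosyn, an inhibitor of SNARE assembly, was measured by 3 probes of different RefSeq transcripts. The brightest gave 8.25, 8.34 and 7.72 at 3 months and 9.42, 8.53 and 9.90 at 12 months. The ages did not overlap, and 12-month replicate 2 was again nearest to the young arrays. The difference was 1.18 (limma SE 0.40, adjusted p 0.101), and 1.55 with a limma adjusted p of 0.0384 without 12-month replicate 2. Leaving out any other array gave limma adjusted p from 0.132 to 0.250, with 0.87 without 12-month replicate 3. The other 2 probes were higher by 1.67 and 1.94, with limma adjusted p of 0.0897 and 0.0629.

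Of 15 synaptotagmins with a probe 10 were tested, of which 8 were lower and 2 higher at 12 months, where 6316 of 11183 tested genes were lower. Among the lower ones *Syt1* and *Syt7* were tested only through their 3-month arrays, where they are high. Of the 10 tested, 0 passed the adjusted threshold in limma, and 2 had an unadjusted limma p under 0.05, *Syt7* and *Syt4*. *Syt4*, a granule synaptotagmin of endocrine cells whose first C2 domain lacks a calcium-binding residue, had log2 signals of 15.71, 15.31 and 15.73 at 3 months and of 14.93, 14.88 and 14.73 at 12 months. The ages were separate, with a difference of -0.74 (limma SE 0.24, adjusted p 0.0912). *Syt7*, a high-affinity calcium sensor of insulin granules, had 5.67, 5.33 and 5.53 and then 3.60, 4.53 and 4.80. It was above background on all 3-month arrays and on no 12-month array, so the size of its difference is uncertain. With 12-month signals raised at least to the lowest signal marked above background, the 3-month level was 1.64-fold higher on the background-subtracted scale. That is not a strict limit, as *Syt1* read 5.49 on 12-month replicate 2 without being above background. The limma adjusted p was 0.0784, and with normexp the fitted difference of *Syt7* was -0.29, a smaller one. *Syt13*, a synaptotagmin that does not bind calcium, was above background on 1 array at 3 months and 2 at 12 months, and its 12-month signals of 5.80, 4.03 and 8.70 overlapped the 3-month ones of 3.69, 4.38 and 3.06 (difference 2.47, limma SE 1.103, adjusted p 0.173).

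The remaining synaptotagmins showed smaller differences. *Syt5*, which the gene table also lists under the name SytIX, so that it can be confused with *Syt9* in older texts, had 10.90, 8.95 and 10.80 at 3 months and 9.61, 9.62 and 10.50 at 12 months, with a difference of -0.31 (limma SE 0.58, adjusted p 0.730). *Syt1*, the fast calcium sensor of synapses, was above background on all 3-month and on no 12-month arrays. Its 3-month mean of 4.66 was below 4.92, its 12-month value raised as for *Syt7*, so no fold is given. The raised value averages, over the arrays, the higher of the gene's own signal and the lowest signal marked above background. *Syt11* differed by -0.06, *Syt12* by -0.30, *Syt6* by -0.44, *Syt8* by -0.65 and *Syt17* by 0.43, with limma adjusted p from 0.242 to 0.935. *Syt2* and *Syt3* were above background on no array, *Syt9* on 1, *Syt10* and *Syt15* on 2 each, and none of these was tested.

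The synaptotagmin-like proteins bind the GTPase Rab27 and link granules to the plasma membrane or to SNARE proteins. *Sytl1* had 12.49, 12.52 and 12.28 at 3 months and 11.33, 10.97 and 11.80 at 12 months, separate ages with a difference of -1.07 (limma SE 0.28, adjusted p 0.0638). *Sytl2* had 7.28, 8.52 and 6.99 and then 9.34, 8.57 and 8.505, which overlapped, with a difference of 1.21 (limma SE 0.46, adjusted p 0.130). *Sytl3* had 6.36, 5.15 and 6.10 and then 5.33, 4.91 and 3.85, with a difference of -1.18 (limma SE 0.49, adjusted p 0.149). It was above background on all 3-month arrays and on 1 at 12 months, so the 12-month level lay near background, and with normexp the difference was -0.41 with a limma adjusted p of 0.243. These 3 passed the fold and unadjusted p of the study. *Sytl5* was higher on every 12-month array, by 0.85 (limma SE 0.24, adjusted p 0.0731), and *Sytl4*, known as granuphilin, the family member of insulin granules, was above background on 1 array, at 12 months, and was not tested.

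**Figure D4:**
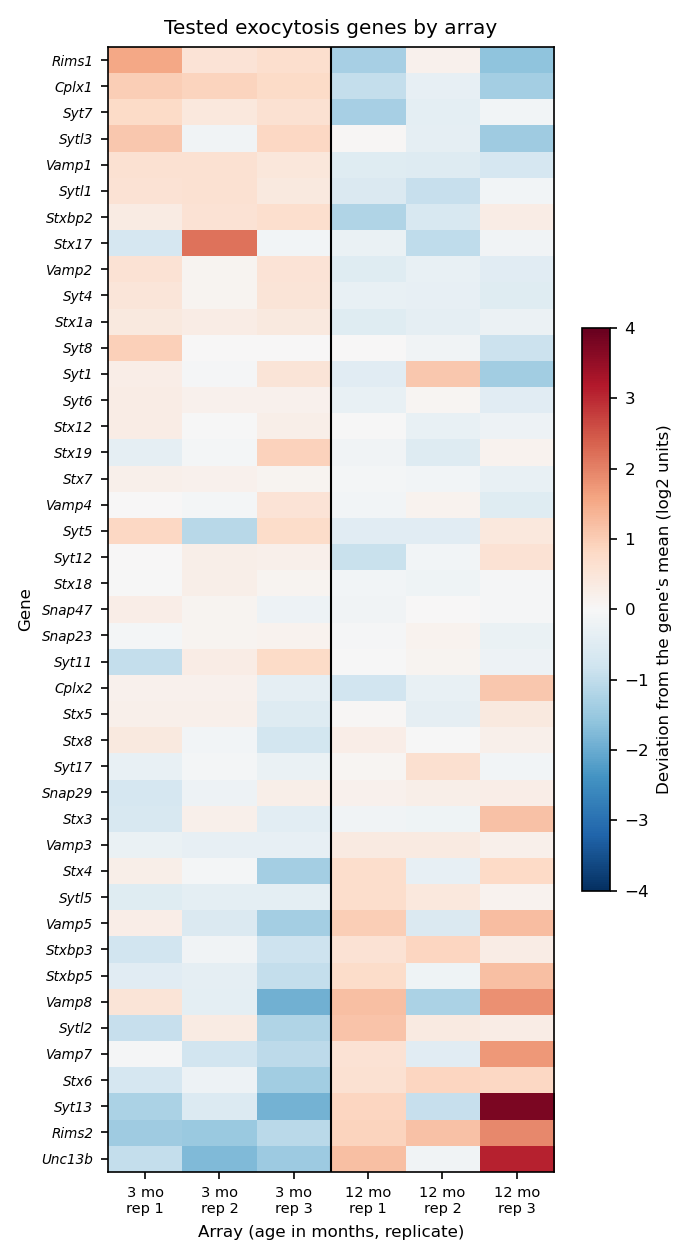
Each row is 1 of 43 tested genes and each column an array; colour gives the log2 signal minus the gene's mean over the 6 arrays, with genes ordered by their difference between the ages. Genes at the top are higher on the 3-month arrays and genes at the bottom on the 12-month arrays, and for *Unc13b*, *Vamp8* and *Stxbp5* 12-month replicate 2 lies nearer to the 3-month arrays than the other 12-month arrays do.

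Beyond these families, a list of other exocytosis machinery had 63 genes with a probe and 50 tested, with a median difference of -0.03. Of the 50 tested, 4 rose and 1 fell at the adjusted threshold, 10% of them, beside 7.83% of all tested genes. *Syn1* and *Syn2* encode synapsins, which tether vesicles, and moved in opposite directions. Each had 2 probes, and the values given are those of the brighter one only. *Syn1* rose from 5.61 ± 0.20 to 7.91 ± 0.24 log2 units (SD, n = 3; difference 2.30, limma adjusted p 0.00666). *Syn2* fell from 8.95 ± 0.17 to 7.69 ± 0.15 (SD, n = 3; difference -1.26, limma adjusted p 0.0267). *Nsf*, the ATPase that takes spent SNARE complexes apart, rose by 2.62 (limma adjusted p 0.0229), *Sec22b*, a SNARE of transport between endoplasmic reticulum and Golgi, by 2.08 (limma adjusted p 0.0292), and *Sypl1*, a relative of synaptophysin, by 1.59 (limma adjusted p 0.0268).

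The families held 11 symbols without a matched probe, which were not analysed here: *Snap25*, *Stx16*, *Stxbp4*, *Stxbp5l*, *Stxbp6*, *Syt14*, *Syt16*, *Vamp9* and the pseudogenes *Stx8-ps1*, *Stx8-ps2* and *Stxbp3-ps1*. Of the 54 members with a probe, 42 were above background on all 3-month arrays and 38 on all 12-month arrays, and 3 were above background on no 3-month array against 10 on no 12-month array. Of all 13882 genes with a probe, 10889 were above background on all 3-month arrays and 9212 on all 12-month arrays.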

How the data were processed

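Islet RNA of rats aged 3 or 12 months was hybridised to 1-colour Arraystar/Agilent arrays, 3 of each age. Per the file headers the deposited intensity values came from Agilent Feature Extraction 11.0.1.1; the background-subtracted intensity was used, and other columns taken as deposited were quality marks of 0 or 1 and the type of control spot. The authors also deposited quantile-normalized log2 values, with a filter not given in the sources used here; these served as an alternative. Arrays have no read depth, and their number limits the precision.

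Spots marked as outliers were dropped, log2 intensities of a probe's spots averaged, and arrays quantile normalized without the control probes. Probes well above background on at least 3 of 6 arrays were tested (17943), with limma 3.58.1 (two-sided moderated test, unblocked) under R 4.3.3 and Benjamini-Hochberg adjustment. No probe was saturated. Genes were named by RefSeq accession without version; 14266 of 15323 mRNA probes matched. A gene was represented by its brightest probe, judged over all 6 arrays. Groups come from the age labels. Recovery of known changes was tested on simulated data.

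Values of 2 members and 1 marker gene are not reported here, though counts and medians include them. Members and lists were chosen with earlier results of these data known. Genes named with values are those past either threshold and a list of members known in insulin granule exocytosis; the other members are given briefly so that each is accounted for. The study names both Student's and a paired t-test, and its pairs are not given in the sources used here; the t-test alternative was unpaired. Alternatives were other normalizations, background corrections, filters, variance models, a t-test, blocks, the authors' table, a gene's mean probe, fewer arrays and an adjusted p under 0.1.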

Additional observations from a re-analysis of the deposited data

How the results depend on the processing

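Against 4 members at the adjusted threshold, 7 passed when arrays were shifted to a common 75th percentile, 8 after normexp, 8 with an intensity trend and robust variances and 13 at an adjusted p under 0.1; of all genes 7.83% passed in the reported fit and 9.03%, 11.1%, 11.6% and 20.2% in these. On the 4 arrays with like name endings 0 passed in limma (9 at the study's threshold), as did 0 of all genes, and leaving out 1 array gave 1 to 6, beside 1.08% to 10.2% of all genes. The number was 4 on the authors' table and 3 with the methods' t-test, where 8.80% and 2.38% of all genes passed. By the t-test *Rims2* (adjusted p 0.0516), *Cplx1* (0.0732) and *Stx6* (0.105) no longer passed, while *Vamp3* (0.0342) and *Stx1a* (0.0444) did. Against 5 genes of the other machinery, 8 passed with normexp, 2 with the methods' t-test, 9 at an adjusted p under 0.1, 0 on those 4 arrays, and 1 to 6 in the fits lacking 1 array. The shares of all genes in these fits are those given above. At the study's threshold 13 members passed, 9 with the methods' t-test, 7 with normexp, and 9 to 15 with 1 array left out. Of all genes 19.45% did, 14.21% with the t-test, 11.18% with normexp, and 15.94% to 23.71% with 1 array left out. The members' median moved from -0.12 to -0.33 with the 75th percentile shift, while that of all genes moved from -0.13 to -0.34. The shift also changed the share of higher members at the study's threshold from 46.2% to 40.0%. Why these numbers moved was not tested.

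Like-numbered arrays had deviations from their age means correlating at -0.01, -0.31 and -0.26. Such correlations cannot decide whether arrays were paired in the experiment, and the pairs are not given in the sources used here. With the replicate block of 3 pairs, the third formed by elimination, 0 members and 0 other genes passed the adjusted threshold and 10 members the study's; with the numbered pairs 0, 0 and 9. Of all genes 0.41% and 0% passed the adjusted threshold in these fits and 17.9% and 15.2% the study's.

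Of 434 values of 26 named genes under the alternatives, 370 kept their direction and side of the threshold. Of the rest 30 no longer passed, 18 passed newly and 16 changed sign, the sign changes all outside the called genes. Only the called genes could stop passing, so all 30 losses were theirs. *Cplx1* passed in 8 of 17 alternatives, *Stx6* in 8 of 17, *Vamp1* in 9 of 17 and *Rims2* in 12 of 16. *Rims2* was tested only through its 12-month arrays, its 3-month level lay close to background, and it left the fit of genes above background on all 6 arrays. Its count therefore cannot be ranked against those of the other 3. Shifting to the 75th percentile put *Cplx2* at -0.054; its difference was -0.70 with the numbered pairs, -0.45 on the 4 arrays, and it ran from -0.53 to 0.38 when single arrays were dropped. With the numbered pairs *Snap23* was at 0.030, *Vamp8* at -0.10, *Syt1* at 0.21 and *Syt11* at 0.38. With the 4 arrays *Stx3* was at -0.061 and *Syt1* at 0.085. With 1 array left out *Syt1* ran from -1.16 to 0.069, *Syt11* from -0.56 to 0.30 and *Syt5* from -0.94 to 0.038. Negative control spots had higher medians on the 12-month arrays, and the part of this in the values of dim members was not tested.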

Other observations

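For 10 of the 19 members that were higher at 12 months, 12-month replicate 2 was the lowest of the 3 arrays of its age, and for 10 of the 25 lower members it was the highest of them. The 3-month array nearest to the other age was as often replicate 2, for 9 of the higher and 11 of the lower members. Without 12-month replicate 2, 6 members passed the adjusted threshold in limma, *Vamp1*, *Stxbp5*, *Cplx1*, *Rims1*, *Rims2* and *Unc13b*, while *Stx6* did not; of all genes 10.2% passed in that fit, beside 7.83% with all arrays. No test of this pattern was made.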
